A study of Mus musculus with 8 samples.

Results

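The 10 genes described here encode the core of the transforming growth factor beta (TGF-beta) pathway in the mouse: the ligands Tgfb1, Tgfb2 and Tgfb3, the receptors Tgfbr1 and Tgfbr2, and the signal-carrying or inhibitory proteins Smad2, Smad3, Smad4, Smad6 and Smad7. They were taken by name from the gene annotation of 2 promoter arrays and make up 10 of the 16647 genes on those arrays for which a ratio could be smoothed over neighbouring probes. The measurement is chromatin immunoprecipitation read on arrays (ChIP-chip). DNA bound by a Flag-tagged HoxB4 protein (Flag-IP, labelled with the red dye Cy5) was hybridised together with total chromatin DNA from such cells (input, labelled with the green dye Cy3). HoxB4 is a homeobox transcription factor that expands blood stem and progenitor cells in culture. The cells were derived from the mouse embryonic stem (ES) cell line B6N-22UTR. Precursors with the surface proteins c-Kit and CD41 were isolated after 6 days in embryoid bodies, placed on OP9 stromal cells and infected with a retrovirus encoding HoxB4 with a 3×FLAG tag. According to the series text, c-Kit+ progenitors were collected with magnetic beads at day 12 of coculture. The protein was therefore an overexpressed, tagged form in cells of a single ES line. Both the Flag-IP and the input DNA came from cells that carried it, and both were amplified with T7 RNA polymerase before labelling, per the labels. A Flag-IP from cells without the tagged protein was not analysed here. Each promoter was covered by 1 array only, so the ratios have no replicate and no test, and no value below is a call of binding.

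TGF-beta ligands are secreted in a latent form and, once released, bring together a type II receptor (Tgfbr2) and a type I receptor (Tgfbr1), both kinases. The type I receptor phosphorylates Smad2 and Smad3, which join Smad4 and enter the nucleus to regulate target genes, while Smad6 and Smad7 oppose this at the receptors. In blood formation the pathway is known as a brake on the division of stem and progenitor cells, with TGF-beta 1 the best studied ligand.

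The upstream sequences of 4 of the genes are shown because their ratios differ at the start under the processing described below. At Tgfb1 the mean log2 ratio within 500 bp of the start was 0.27, near the all-gene median of 0.32, and the ratio was high inside the gene. At Tgfb2, Tgfbr2 and Smad3 the mean near the start was 0.77, 0.71 and 0.68. This contrast depends on the processing. With another background correction (normexp) the means were 0.60 at Tgfb1, 0.43 at Tgfb2, 0.79 at Tgfbr2 and 0.65 at Smad3. The sequences are the 250 bases before the start in RefSeq's promoter table (assembly GRCm38.p6), written 5′ to 3′ on the gene's strand. Capitals mark matches, on either strand, to TAAT, a core that homeodomains recognise, to TGATTNAT, a joint site of Hox and Pbx proteins, or to CAGAC, a short motif that Smad proteins bind.
Tgfb1, chr7:25686752-25687001, + strand: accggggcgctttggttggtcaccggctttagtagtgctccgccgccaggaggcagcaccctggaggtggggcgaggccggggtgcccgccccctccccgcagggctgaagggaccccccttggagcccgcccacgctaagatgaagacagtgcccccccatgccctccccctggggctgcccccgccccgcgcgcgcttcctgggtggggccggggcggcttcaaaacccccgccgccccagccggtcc
Tgfb2, chr1:186705990-186706239, − strand: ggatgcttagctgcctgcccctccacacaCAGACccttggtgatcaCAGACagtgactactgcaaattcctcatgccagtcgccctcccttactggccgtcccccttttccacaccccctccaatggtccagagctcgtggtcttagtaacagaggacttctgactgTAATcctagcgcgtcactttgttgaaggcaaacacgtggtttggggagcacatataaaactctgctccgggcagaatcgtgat
Tgfbr2, chr9:116175364-116175613, − strand: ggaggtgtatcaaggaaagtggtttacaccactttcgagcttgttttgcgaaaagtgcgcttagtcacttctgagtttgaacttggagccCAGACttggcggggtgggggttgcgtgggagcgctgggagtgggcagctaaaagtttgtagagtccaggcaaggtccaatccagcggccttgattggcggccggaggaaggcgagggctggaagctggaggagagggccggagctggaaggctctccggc
Smad3, chr9:63757995-63758244, − strand: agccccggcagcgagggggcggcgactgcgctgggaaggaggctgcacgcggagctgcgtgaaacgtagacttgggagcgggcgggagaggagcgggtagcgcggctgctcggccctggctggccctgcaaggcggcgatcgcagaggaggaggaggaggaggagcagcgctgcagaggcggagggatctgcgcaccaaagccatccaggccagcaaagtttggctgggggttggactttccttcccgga
The Tgfb2 stretch holds 1 TAAT, 83 bases before the start, and CAGAC 221 and 204 bases before it. The Tgfbr2 stretch holds CAGAC 160 bases before the start. None of the motifs occurs in the Tgfb1 and Smad3 stretches. Over all 32851 promoters of the table, searched with the 50 bases after the start included (300 bases each), 58.0% hold TAAT, 3.22% hold TGATTNAT and 49.6% hold CAGAC. The Tgfb1 promoter is 77% G and C over the 300 bases, more than 97.6% of promoters, against 54.3% for Tgfb2, 59% for Tgfbr2 and 67.7% for Smad3. A match describes letters and is no evidence of a bound site.

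The log2 ratio of Flag-IP over input was centred on the median of each array. At each gene it was summarised as the median over 3 neighbouring probes (a window). A total of 323 probes and 293 windows belonged to the 10 genes, between 19 and 44 probes for a gene, with 309 of the probes well above background in both channels. Tgfb1, Tgfb2 and Tgfbr1 lay on the first array and the other 7 genes on the second. The scanner software's own error of the log2 ratio had a median of 0.23 over the 323 probes, and neighbouring probes differed by a median of 0.51 and 0.49 on the arrays, so a single probe carries little weight. On both arrays brighter probes had higher ratios. With the probes of each array divided into 5 equal classes by brightness, the median log2 ratio was 0.52 and 0.46 in the brightest class and -0.94 and -0.95 in the dimmest. The median probe brightness of the 10 genes ran from above 36.7% of its array's probes at Tgfb2 to above 80.4% at Tgfb1, and its part in the values below was not tested beyond the alternative that removes the trend.

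**Figure D1:**
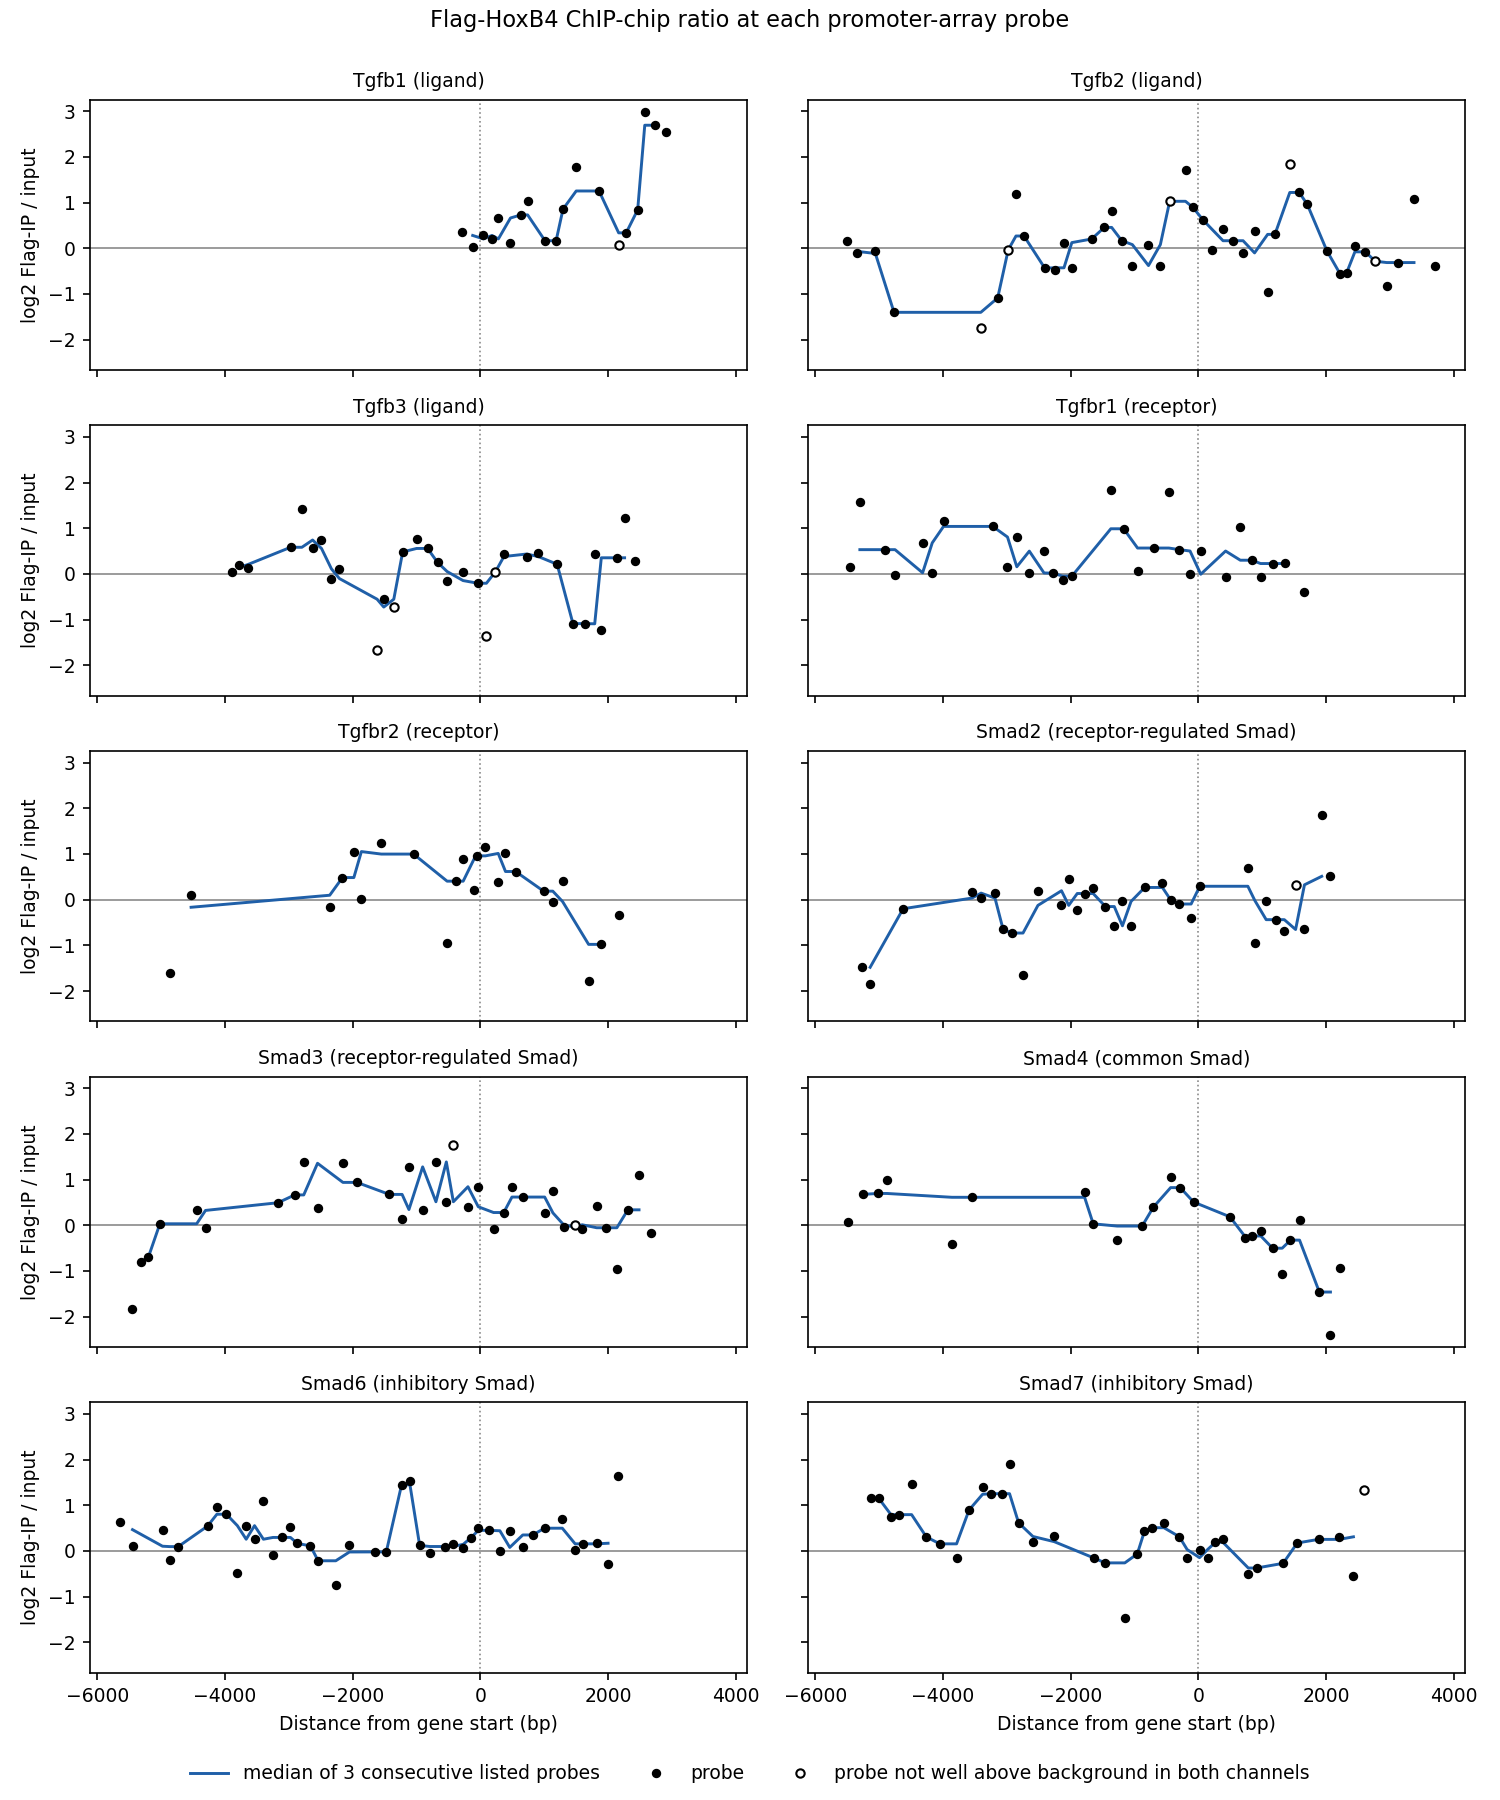
Log2 ratio of Flag-IP over input (vertical axis) at each probe against its distance from the gene start in bp (horizontal axis), for the 10 TGF-beta genes. Points are probes, open where a channel was not well above background, and the line joins medians of 3 consecutive listed probes. The 3 Tgfb1 probes farthest inside the gene stand at 2.54 to 2.99, and no probe of another member reaches 2.

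A highest window at or above a log2 ratio of 1, a Flag-IP signal at least 2-fold above input after centring, was found at 7 of the 10 genes, namely Tgfb1, Tgfb2, Tgfbr1, Tgfbr2, Smad3, Smad6 and Smad7. Of all 16647 genes, 42.7% reached this level. At or above a log2 ratio of 2 was 1 of the 10 genes, Tgfb1, against 3.02% of all genes. The highest windows of the 10 genes had a median of 1.14, and those of all genes a median of 0.90. The 10 genes also had more windows each, a median of 30.5 against 25, and the part of this in their highest windows was not tested. A lowest window at or below -1 was found at 4 of the 10 genes, Tgfb2, Tgfb3, Smad2 and Smad4, against 54.4% of all genes, and the median lowest window was -0.89 in the 10 genes and -1.08 in all genes. Of the 293 windows, 7.51% lay at or above 1, close to the 6.52% of the 416261 windows of all genes. At or below -1 were 2.39% of the 293 windows and 11.4% of the windows of all genes. Just above the level of 1 stood Tgfbr1 at 1.04 and Tgfbr2 at 1.05, and the highest below it was Smad4 at 0.82.

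**Figure D2:**
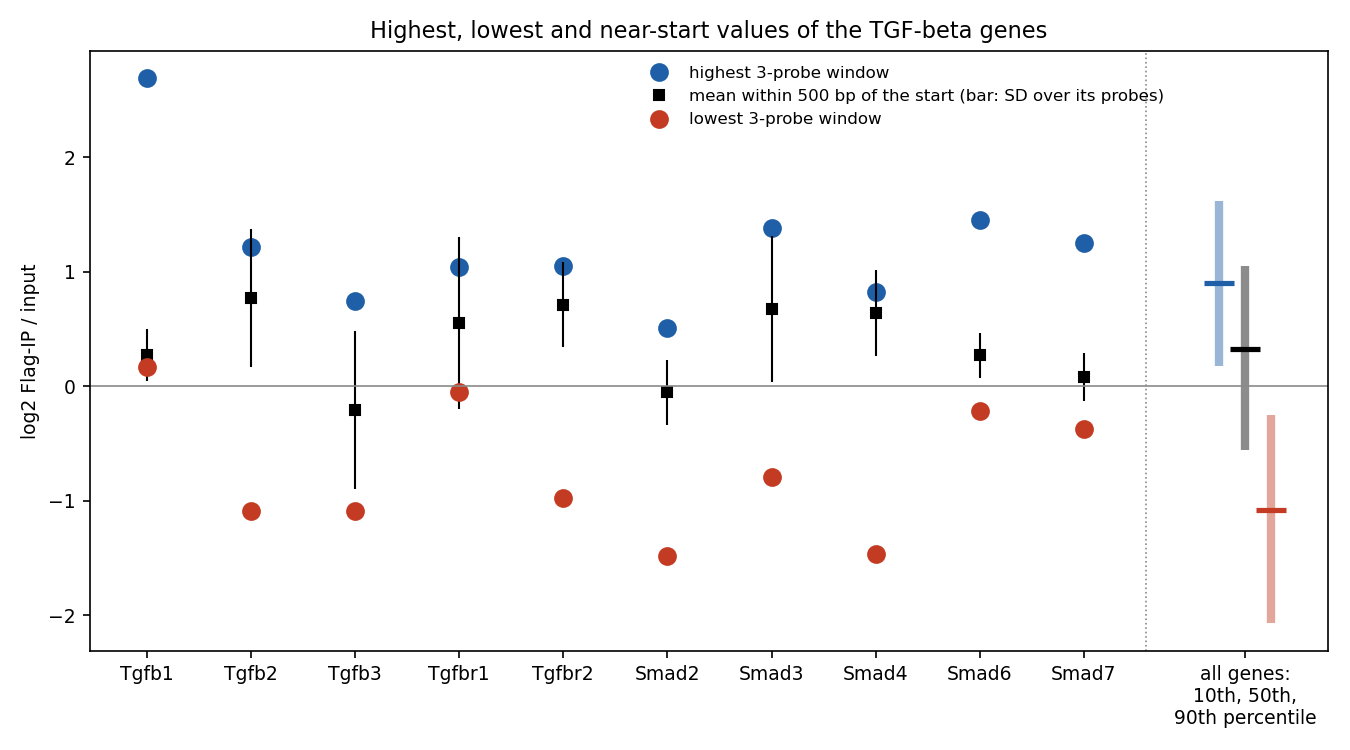
Highest and lowest 3-probe window and the mean within 500 bp of the gene start (vertical axis, log2 Flag-IP over input) for each of the 10 genes. Bars on the means are the SD over the probes of 1 array. On the right, bars run from the 10th to the 90th percentile of all genes and dashes mark medians. The highest window of Tgfb1 at 2.69 lies far above the 90th percentile of 1.62, and the other 9 genes lie between 0.51 and 1.45.

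Tgfb1 encodes TGF-beta 1, the main TGF-beta of blood cells. Its highest window had a log2 ratio of 2.69, higher than that of 99.7% of genes, and ranked 53 of 16647. The window was formed by the last 3 probes listed for the gene, 2576, 2729 and 2911 bp inside the start, at chromosome 7, 25398315 to 25398696 in the coordinates of the files (build: not given in the sources used here). The probe 2576 bp inside had a processed signal of 8519 in Flag-IP and 1031 in input, a log2 ratio of 2.99 with a software error of 0.35. The probe at 2729 bp had 14064 in Flag-IP and 2087 in input, a log2 ratio of 2.69 (error 0.33). The probe at 2911 bp had 5560 in Flag-IP and 918 in input, a log2 ratio of 2.54 (error 0.32). All 3 ratios were several times their software error, which comes from 1 array and is no replicate error. The neighbouring probe at 2465 bp was much lower at 0.84. The next probe of that array on chromosome 7 lies 26865 bp farther on, so where this high stretch ends was not measured.

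Closer to the start the Tgfb1 ratio was lower. The 6 probes within 500 bp of the start lay between 0.02 and 0.66, with a mean of 0.27 ± 0.23 (SD over 6 probes of 1 array), higher than 46.1% of genes. A second, smaller rise stood at 1502 bp, with a log2 ratio of 1.78, and at 1860 bp, with 1.25. All 19 probes of the gene were above 0, and its lowest window was 0.17, higher than that of 98.0% of genes. With the brightness trend removed this did not hold: the lowest window was -0.18, and the probe at -120 bp read -0.51. Across both arrays 99 of 425939 windows were as high as the Tgfb1 window, whereas 880 were as far below 0. Under this processing, values of this size were thus more common below 0 than above it. Ratios at or below -1 lay mostly at dim probes: on the first array they made up 47.7% of the dimmest class and 1.11% of the brightest. The Tgfb1 probes were bright, and the counts of 99 and 880 were not repeated under the alternatives. The rule for naming genes with the most similar profile around the start could not be applied, since Tgfb1 had probes in 5 of the 8 position bins and at least 6 were required.

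**Figure D3:**
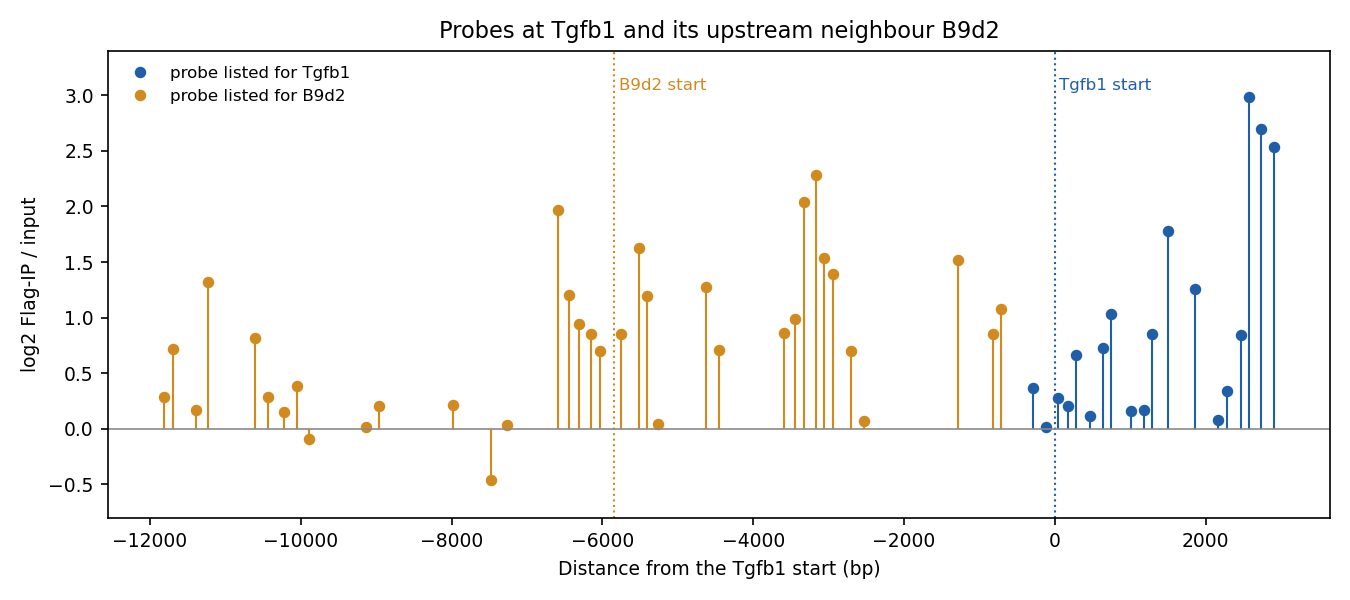
Log2 ratio of Flag-IP over input (vertical axis) at probes listed for Tgfb1 and for its upstream neighbour B9d2, against the distance from the Tgfb1 start in bp (horizontal axis). Dotted lines mark both gene starts. All 42 consecutive probes from -7259 to 2911 bp stand above 0 under the processing described, the highest at 2.99. With the brightness trend removed, this run is broken.

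Only 2 probes listed for Tgfb1 lie before its start, at -293 and -120 bp, because the region upstream belongs to its neighbour B9d2, a gene for a ciliary transition zone protein, which starts 5844 bp before Tgfb1 on the same strand. The 17 probes inside B9d2 were all above 0, between 0.04 and 2.28, with a mean of 1.12 ± 0.60 (SD over 17 probes of 1 array). The highest B9d2 window had a log2 ratio of 2.04, higher than that of 97.4% of genes, 2674 bp inside that gene. A further 11 probes, between -9895 and -6037 bp of Tgfb1, name a Tgfb1 transcript by accession alone and lie in the shared promoter of B9d2 and Tmem91. They ran from -0.46 to 1.97. Counted together, 42 consecutive probes from -7259 to 2911 bp around the Tgfb1 start were above 0, with a mean of 1.00 ± 0.77 (SD), and 17 of them were at or above 1. With the brightness trend removed this run was broken, with -0.43 at -7259 bp and -0.51 at -120 bp.

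Tgfb2 encodes a ligand with roles in heart, eye and skeletal development. Its 44 probes split evenly around 0, with 22 above it. The highest window had a log2 ratio of 1.22, higher than 72.4% of genes, and lay inside the gene at 1434 to 1708 bp, where the probes read 1.84, 1.22 and 0.96. The probe at 1434 bp was not well above background, with 453 in Flag-IP and 121 in input. With only probes well above background, and likewise with windows of 5 probes, the highest window was 0.96, below 1. Around the start, the probe at -448 bp read 1.03 (also not well above background), that at -200 bp read 1.72, that at -86 bp read 0.90 and that at 78 bp read 0.62. The mean within 500 bp was 0.77 ± 0.60 (SD over 6 probes), higher than 79.5% of genes, and the highest of the 10 under the processing described. With another background correction (normexp) it was 0.43, higher than 47.1% of genes, and the mean of Tgfbr1 was the highest, while with the brightness trend removed that of Tgfb3 was. Farther out the values turned low, and the lowest window was -1.09 at -3143 bp, with 1 of its 3 probes well above background.

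Tgfb3, the remaining ligand, known for its role in palate closure, had no window at or above 1. Of its 32 probes, 19 lie in a promoter shared with the divergent gene Ift43, so they cannot be assigned to Tgfb3 alone. Its highest window was 0.74 at -2628 bp, where the single probe at -2796 bp read 1.41, and it exceeded 38.2% of genes. Its lowest window was -1.09 at 1641 to 1895 bp inside the gene, where the middle probe read 0.45 and the outer ones -1.09 and -1.22. Near the start the mean was -0.21 ± 0.69 (SD over 5 probes), the lowest of the 10, and it exceeded 18.0% of genes. This value rests on a probe at 95 bp that read -1.36 and was not well above background. With only probes well above background the mean was 0.10.

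Both receptors stood near the level of 1. Tgfbr1, the type I receptor kinase, had a highest window of 1.04 (60.3% of genes lower), formed by probes at -3991 and -3220 bp with 1.17 and 1.04 and another at -2989 bp with 0.16. Its probes were scattered: single probes at -5302, -1370 and -460 bp read 1.57, 1.83 and 1.80, each beside neighbours below 1. Of its 30 probes 23 were above 0, and its lowest window of -0.05 was higher than that of 95.1% of genes. Tgfbr1 averaged 0.55 ± 0.75 (SD over 5 probes) within 500 bp of the start, higher than 67.2% of genes. This mean was 1.36 with normexp, higher than 94.0% of genes, and -0.04 after the brightness trend was removed, higher than 28.4%. Its highest window was 0.99, below 1, with windows of 5 probes and with probe starts at most 500 bp apart.

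Tgfbr2, the type II receptor that binds the ligand, had a highest window of 1.05 between -1982 and -1552 bp (61.1% of genes lower), where the outer probes read 1.05 and 1.23 and the middle one 0.02. A steadier stretch lay over the start. The 9 consecutive probes from -383 to 991 bp were all above 0, between 0.19 and 1.15, with a mean of 0.64 ± 0.37 (SD). With the brightness trend removed this stretch was broken, with -0.33 at -100 bp and -0.34 at 991 bp. The mean within 500 bp was 0.71 ± 0.37 (SD over 7 probes), higher than 76.5% of genes, and all 7 probes were above 0. The listed distances of Tgfbr2 refer to more than 1 start, so positions near the start are approximate. On its − strand the probe listed at -48 bp (116024013 to 116024057) lies upstream of that listed at -100 bp (116023813 to 116023857). Inside the gene the ratio turned negative, with a lowest window of -0.98 at 1696 to 2172 bp.

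The receptor-regulated Smads differed from each other. Smad3 had a highest window of 1.39 at -696 to -423 bp (81.0% of genes lower), where the probe at -423 bp read 1.76 but was not well above background, that at -533 bp read 0.52 and that at -696 bp read 1.39. It also had the longest unbroken stretch above 0 outside Tgfb1. The 15 consecutive probes from -3170 to -32 bp were all above 0, between 0.15 and 1.76, with a mean of 0.84 ± 0.49 (SD). With the brightness trend removed this stretch was broken, with -0.12 at -194 bp. In the part from -2000 to -500 bp the Smad3 mean was 0.76 ± 0.47 (SD over 7 probes), higher than 93.3% of the 11088 genes with at least 4 probes there. The mean within 500 bp of the start was 0.68 ± 0.64 (SD over 6 probes), higher than 74.5% of genes. With only probes well above background this mean was 0.46, higher than 60.4% of genes, and the highest window was 1.36 at -2551 bp. Beyond -5000 bp the ratio fell away, and the lowest window was -0.79 at -5315 bp.

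Smad2 had the lowest highest window of the 10 genes under the processing described, 0.51 at 1934 bp, which exceeded 22.9% of genes. The window held probes of -0.65, 1.85 and 0.51, so its median hides a single high probe with 5690 in Flag-IP and 1509 in input. With normexp the highest Smad2 window was 0.84, above that of Smad4 at 0.66. With the brightness trend removed it was 1.31, higher than 86.0% of genes. Of the 34 probes 14 were above 0. The lowest window was -1.48 at the far upstream end, at -5141 bp, higher than that of 28.9% of genes. The 4 probes within 500 bp of the start averaged -0.05 ± 0.28 (SD), higher than 24.2% of genes.

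Smad4, the common partner of the receptor-regulated Smads, was highest just before its start, with a window of 0.82 at -433 to -73 bp (44.2% of genes lower). The 3 probes there read 1.05, 0.82 and 0.51, an even stretch. Inside the gene 9 of 10 probes from 500 to 3000 bp were below 0, with a mean of -0.72 ± 0.76 (SD), higher than 14.4% of the 14947 genes with at least 4 probes there. The lowest window was -1.46 at 1897 to 2220 bp, where the probe at 2071 bp had 136 in Flag-IP and 683 in input, a log2 ratio of -2.40, the lowest probe of the 10 genes. The mean within 500 bp was 0.64 ± 0.38 (SD over 4 probes), higher than 72.7% of genes.

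The inhibitory Smads both had their highest window upstream, away from the start. Smad6 had 1.45 at -1234 to -951 bp, higher than 83.8% of genes and next after Tgfb1 among the 10 under the processing described. It came from 2 probes: the one at -1103 bp had 1848 in Flag-IP and 608 in input (1.53), and the one at -1234 bp had 3680 in Flag-IP and 1286 in input (1.45). The probes on either side, at -1474 and -951 bp, read -0.02 and 0.12, and with windows of 5 probes the highest value fell to 0.55. With normexp the highest Smad6 window was 1.26, below that of Tgfbr1 at 1.44, and with the brightness trend removed it was 0.92. Near the start the values varied little, with a mean of 0.27 ± 0.20 (SD over 7 probes) within 500 bp, higher than 45.7% of genes. Farther out they scattered more, from -0.74 to 1.10 over the 20 probes between -6000 and -2000 bp, and the single highest probe, 1.65, lay 2160 bp inside the gene. The lowest window was -0.21, higher than that of 91.1% of genes.

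Smad7 is a target of TGF-beta signalling itself and acts as a feedback inhibitor. Its highest window was 1.25 at -3243 to -2957 bp, higher than 74.4% of genes, with probes at 1.24, 1.25 and 1.90. This window lay in a broad raised region. The 8 consecutive probes from -3591 to -2257 bp were all above 0 with a mean of 0.98 ± 0.58 (SD), and 15 of the 16 probes listed between -6000 and -2000 bp were above 0 with a mean of 0.84 ± 0.57 (SD). That mean was higher than 98.5% of the 12256 genes with at least 4 probes there. With the brightness trend removed the run of 8 probes was broken, with -0.26 at -2591 bp. The mean between -6000 and -2000 bp was not computed with the trend removed. In contrast the mean within 500 bp of the start was 0.08 ± 0.21 (SD over 6 probes), higher than 31.8% of genes. Its lowest window was -0.37 at 784 to 1329 bp inside the gene. With windows of 5 probes Smad7 kept a highest value of 1.25.

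The means within 500 bp of the start ran, from high to low, Tgfb2, Tgfbr2, Smad3, Smad4, Tgfbr1, Tgfb1, Smad6, Smad7, Smad2 and Tgfb3. The difference between the first and the last was 0.98 on the log2 scale, with SDs of 0.60 and 0.69 over their probes, and neighbours in this order never differed by more than the larger of their own SDs. The median of the 10 means was 0.41, and that of 16205 genes was 0.32. Between -6000 and -2000 bp the 104 probes of 9 members averaged 0.21 ± 0.76 (SD), against -0.30 ± 0.90 (SD) over 137035 probes of all genes. Tgfb2 and Tgfbr2 (-0.30 each) stood at that average and Smad2 (-0.47) below it, and the other 6 members above it. Between 500 and 3000 bp the members averaged 0.16 ± 0.88 (SD, 99 probes), against -0.05 ± 0.88 (SD) over 138876 probes of all genes. Without Tgfb1 the 86 probes left averaged 0.0027 ± 0.75 (SD). Within 500 bp of the start the averages were 0.39 ± 0.54 (SD, 56 probes) in the members and 0.30 ± 0.83 (SD, 77454 probes) in all genes. The probes of a gene share their chromatin and array, so these SDs are no error of a condition, and the upstream parts were chosen after the profiles had been seen. Averages over all member probes of a part were not computed with the brightness trend removed.

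**Figure D4:**
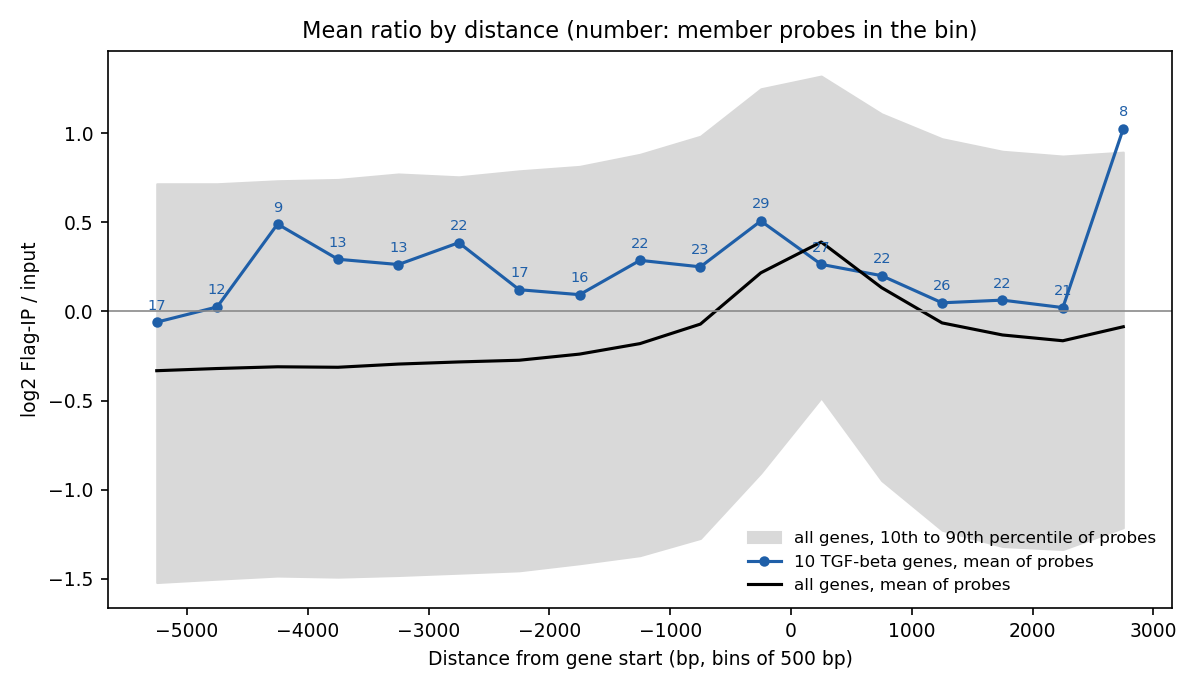
Mean log2 ratio of Flag-IP over input (vertical axis) in bins of 500 bp by distance from the gene start (horizontal axis), for probes of the 10 TGF-beta genes (blue, with their number) and of all genes (black line, with the 10th to 90th percentile of probes in grey). The blue line lies above the black one in every bin but the one from 0 to 500 bp, and its last point, 1.02 over 8 probes, includes the 3 high Tgfb1 probes. The brightness trend is not removed.

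Of 53 other genes of the TGF-beta and BMP (bone morphogenetic protein) pathways, 45 had a window, and 18 of these, 40%, reached 1, against the 42.7% of all genes. Their highest windows had a median of 0.91, close to the 0.90 of all genes. The count was 3 of 15 for ligands and their traps, 4 of 10 for receptors, 2 of 3 for Smads, 5 of 11 for partners and regulators of Smads, and 4 of 6 for target genes. The highest was Tgif1, a homeobox repressor that binds Smads, with 2.31 at 1527 bp, and its probes ran from 1.74 to 2.53. It was the single gene of this list at or above 2. Next came Bambi, a pseudoreceptor that blocks signalling, with 1.77 at -297 bp and a mean of 1.43 within 500 bp of the start. Smad5, a BMP-regulated Smad, had 1.59, and Ltbp4, which anchors latent ligand in the matrix, had 1.45. The lowest highest windows belonged to Bmp4, a BMP ligand, with 0.30, Smad9, another BMP-regulated Smad, with 0.14, and Acvr1, a type I receptor for BMPs, with -0.11.

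**Figure D5:**
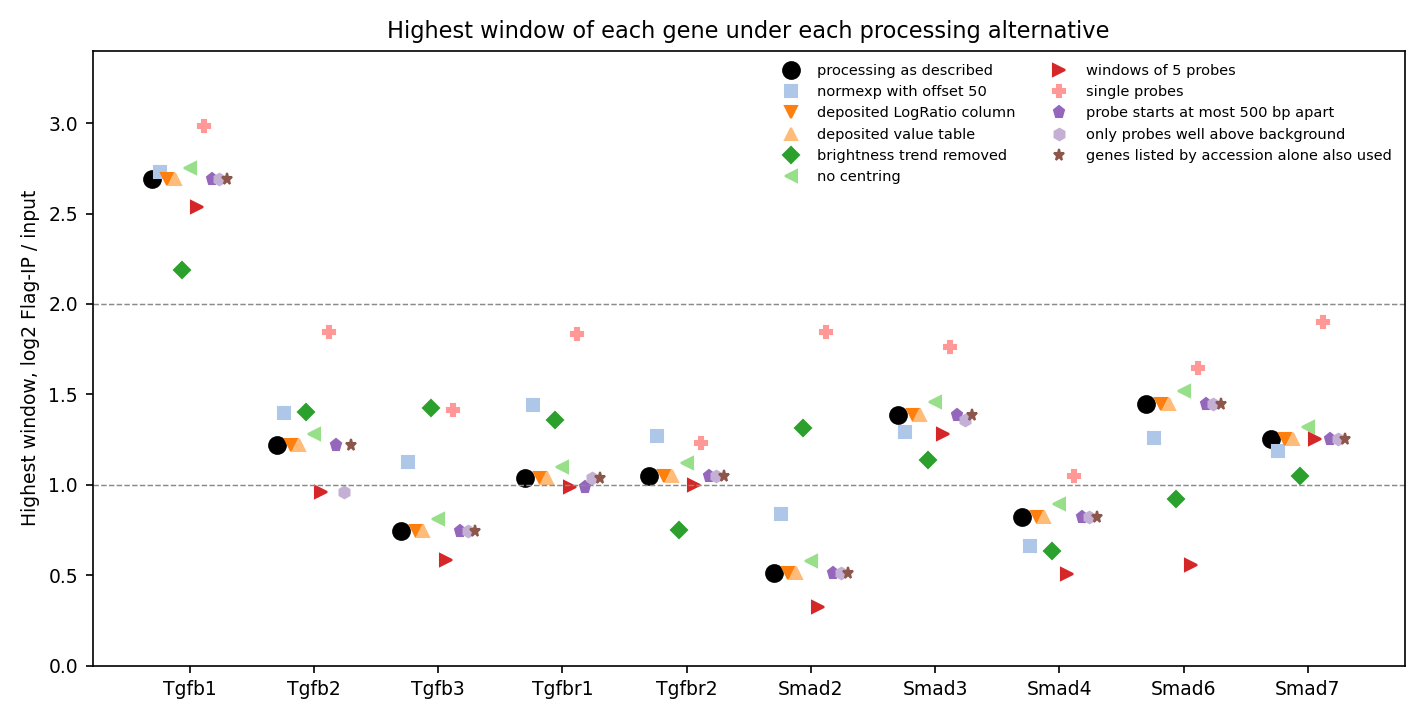
Highest window of each of the 10 genes (vertical axis, log2 Flag-IP over input) under the processing described and under 10 alternatives, 1 marker for each. Dashed lines mark log2 ratios of 1 and 2. Tgfb1 stays between 2.19 and 2.99, and every value of the other 9 genes is below 2.

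Tgfb1 kept the highest window of the 10 genes under each of the 10 processing alternatives, between 2.19 and 2.99 and higher than at least 99.4% of genes. The order of the other members depended on the processing. After the brightness trend was removed, Tgfb3 had 1.42 and Smad2 had 1.31, both above 1, while Smad6 had 0.92 and Tgfbr2 had 0.75, both below it.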

How the data were processed

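The intensities used are processed signals that Agilent Feature Extraction 10.1.1.1 made by subtracting background, removing spatial trends and scaling the dyes linearly, per the file headers. Deposited mean and background intensities, the deposited log10 ratio column with its log10 error, and the deposited value tables (log10 of Flag-IP over input, uncentred) served alternatives and error values. The log2 ratio of the deposited processed signals was computed here for 237195 and 237185 probes, without controls and without 19 and 38 probes marked as outliers, and centred on each array's median (0.06 and 0.07), with no loess or quantile step. Windows are medians of 3 neighbouring probes, with starts no more than 1000 bp apart, given to the genes named for the middle probe; among equal windows the one with the higher mean (for lowest windows, the lower mean) was described. The window code was tested on simulated data. Gene names came from the files' annotation, updated through RefSeq tables (GRCm38.p6): 16287 symbols matched by accession, 311 by symbol, 175 by synonym, and 135 were kept. Distances are the files' own. The deposited expression values were not used here, since no pairing of their probe sets with genes was at hand.

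All 10 genes are named with their highest and lowest window and near-start mean, and of the other pathway genes the 5 highest and 3 lowest, of which 1 is not reported here. The members and lists were chosen with earlier results of these data known. Alternatives (limma 3.58.1 normexp with an offset of 50, other columns, lowess removal of the brightness trend, no centring, other windows and filters) are in the closing section. The number of arrays, 1 per probe set, limits the precision.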

Additional observations from a re-analysis of the deposited data

How the results depend on the processing

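Of the 10 highest windows under 10 alternatives, 90 of 100 values moved by less than the SD of their 3 probes. This share is no measure of stability. The deposited ratio columns and the omission of centring left the highest windows nearly unchanged, and genes listed by accession alone changed none. The SD was also wide at some genes. At Smad2 it was 1.25, so the move from 0.51 to 1.31 with the brightness trend removed counts among the 90. The count of the 10 genes at or above a log2 ratio of 2 was 1 throughout, while the share of all genes ran from 1.13% to 12.8%. The count at or above 1, which was 7, fell to 3 with windows of 5 probes, against 28.4% of all genes, and lay between 6 and 10 otherwise, against 34.7% to 69.3% of all genes, with the 10 and the 69.3% both from single probes. The count with a lowest window at or below -1, which was 4, was 0 with normexp (6.82% of all genes), 2 with windows of 5 probes (37.3%) and 7 with single probes (83.1%). Single probes put 35 of the other pathway genes at or above 1 (69.3% of all genes). Near the start 8 of 60 means changed sign and 3 others moved by more than the SD of their probes, all with normexp: Tgfb1 to 0.60, Tgfbr1 to 1.36 and Smad7 to 0.45. With the brightness trend removed, the mean was 1.06 at Tgfb3, -0.037 at Tgfbr1, -0.0801 at Smad6 and -0.33 at Smad7. For Tgfb3 it was 0.0527 with the deposited log ratio column and 0.10 with only probes well above background. For Smad2 it was 0.26 with normexp and 0.0156 without centring. The cause of these changes was not tested, and neither was the part of smoothing in the values from windows of 5 probes. Using genes listed by accession alone was an alternative chosen after seeing the data, and it moved no count past 1.5 times. No paired analysis was possible because each probe set was hybridised on 1 array. Without a second array, differences between genes cannot be set against replicate error.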
